A study of Mus musculus with 21 samples.

Results

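The genes described here are 39 transcripts of macrophages and other leukocytes, from RNA sequencing of whole testes, 1 library for each of 21 C57BL6 male mice. They were found by symbol among the 55573 entries of the deposited table, where each matched 1 entry, and 36 of them passed the filter for testing (1 TPM or more on average over all libraries), among 18977 genes tested. Lyve1, Ccr2 and Cd79a did not pass. Testes came from Mageb4 knockout mice 72 h after heat shock (heated KO, n = 5), wild-type mice 72 h after heat shock (heated WT, n = 4), knockout mice without heat (unheated KO, n = 6) and wild-type mice without heat (unheated WT, n = 6). No source used here gives the knockout allele, the age of the mice, or how hot and how long the heat shock was. Values are TPM, transcript abundances per length that sum to the same total in every library, so sequencing depth, and with it the counting error of genes at low levels, is unknown. Libraries are labelled as biological replicates, with no litter, batch or day named.

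Mageb4, the targeted X-linked gene, had 0.09 to 0.15 TPM in heated KO, 7.82 to 8.26 TPM in heated WT, 0.01 to 0.11 TPM in unheated KO and 1.53 to 1.99 TPM in unheated WT testes, so every library matched its genotype label. A list of 10 round spermatid genes, which mark the germ cells of the tissue, summed to 1139 to 1523 TPM in heated KO, 342 to 523 TPM in heated WT, 2776 to 2905 TPM in unheated KO and 2792 to 3075 TPM in unheated WT libraries. Much of the heated KO sum was 1 gene of the list, with 604 to 712 TPM in heated KO and 560 to 614 TPM in unheated KO libraries. Among the genes described here, heated KO replicate 2 was the highest of its group for 19 of the 39 and unheated WT replicate 6 for 18. 3 other libraries stood apart, the last of them on genes of the epididymis. Unheated KO replicate 3 was the highest of its 6 libraries for 26 of the 39 genes. Heated WT replicate 2 was the highest of its 4 libraries for 30 of the 39. Heated WT replicate 3 held 3557 TPM of 10 epididymal genes, against 13.6 to 20.4 TPM in the other 3 heated WT libraries. Results that rest on one of these 3 libraries are given with and without it.

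Testicular macrophages are the most abundant leukocytes of the mouse testis. One population lies in the interstitium among the Leydig cells and carries CSF1R, the mannose receptor MRC1 and CD163. Another lies along the seminiferous tubules and carries MHC class II, the molecule that presents peptides to CD4+ T cells. Their survival depends on signalling through CSF1R, their identity on the transcription factor PU.1 (Spi1), and they clear dying germ cells and debris through Fc, complement and scavenger receptors.

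In the data these transcripts were higher after heat in both genotypes, and less so in the knockout. Of the 36 genes tested, 33 rose in heated KO against unheated KO testes and none fell, where 41.3% of all genes tested rose and 41.5% fell. At an unadjusted p under 0.05 none of the 36 was lower in heated KO testes either. In heated WT against unheated WT testes 34 rose and 1, Aif1, fell, where 47.0% of all genes rose and 44.6% fell. The genes that rose did so by 1.64- to 3.24-fold in the knockout, with a median of 2.42-fold, and by 2.45- to 77.5-fold in wild type, with a median of 5.30-fold, as ratios of group means. The top of the wild-type range is Cd52, set by 1 library. Against heated WT testes, heated KO testes had 26 genes lower and 1 higher, with 49.0% of all genes lower and 34.4% higher. Calls are from limma on log2(TPM + 1) at a Benjamini-Hochberg adjusted p under 0.05 over all genes tested, and the comparisons share groups, so they are not independent of each other. In whole tissue, a change in cell number, in RNA per cell and in the share of RNA from other cells cannot be told apart. TPM sum to the same total in every library, so where transcripts of 1 cell type fall, those of others can rise with no change in their amount.

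The median difference of the genes described here, on the log2(TPM + 1) scale (where a pseudocount shrinks the change of genes with low values), was 1.04 for heated KO against unheated KO and 1.93 for heated WT against unheated WT testes. Over all genes tested the medians were 0.01 and 0.06. For heated KO against heated WT testes it was -0.62, against -0.20 over all genes, and for unheated KO against unheated WT testes it was 0.30, against 0.03 over all genes. Scaling by the median of ratios moved the differences of all genes in the wild-type heat comparison by a median of -0.13, and left the 34 genes higher and 1 lower. Of the 39 genes, 11 averaged under 1 TPM in unheated WT testes, among them the 3 that were not tested, so the other 8 passed the filter through libraries in which they were higher. With no filter all 39 were tested: 35 rose in the knockout, where 25.8% of 39589 genes rose and 25.7% fell, and 37 rose in wild type, where 34.1% rose and 30.3% fell.

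**Figure D1:**
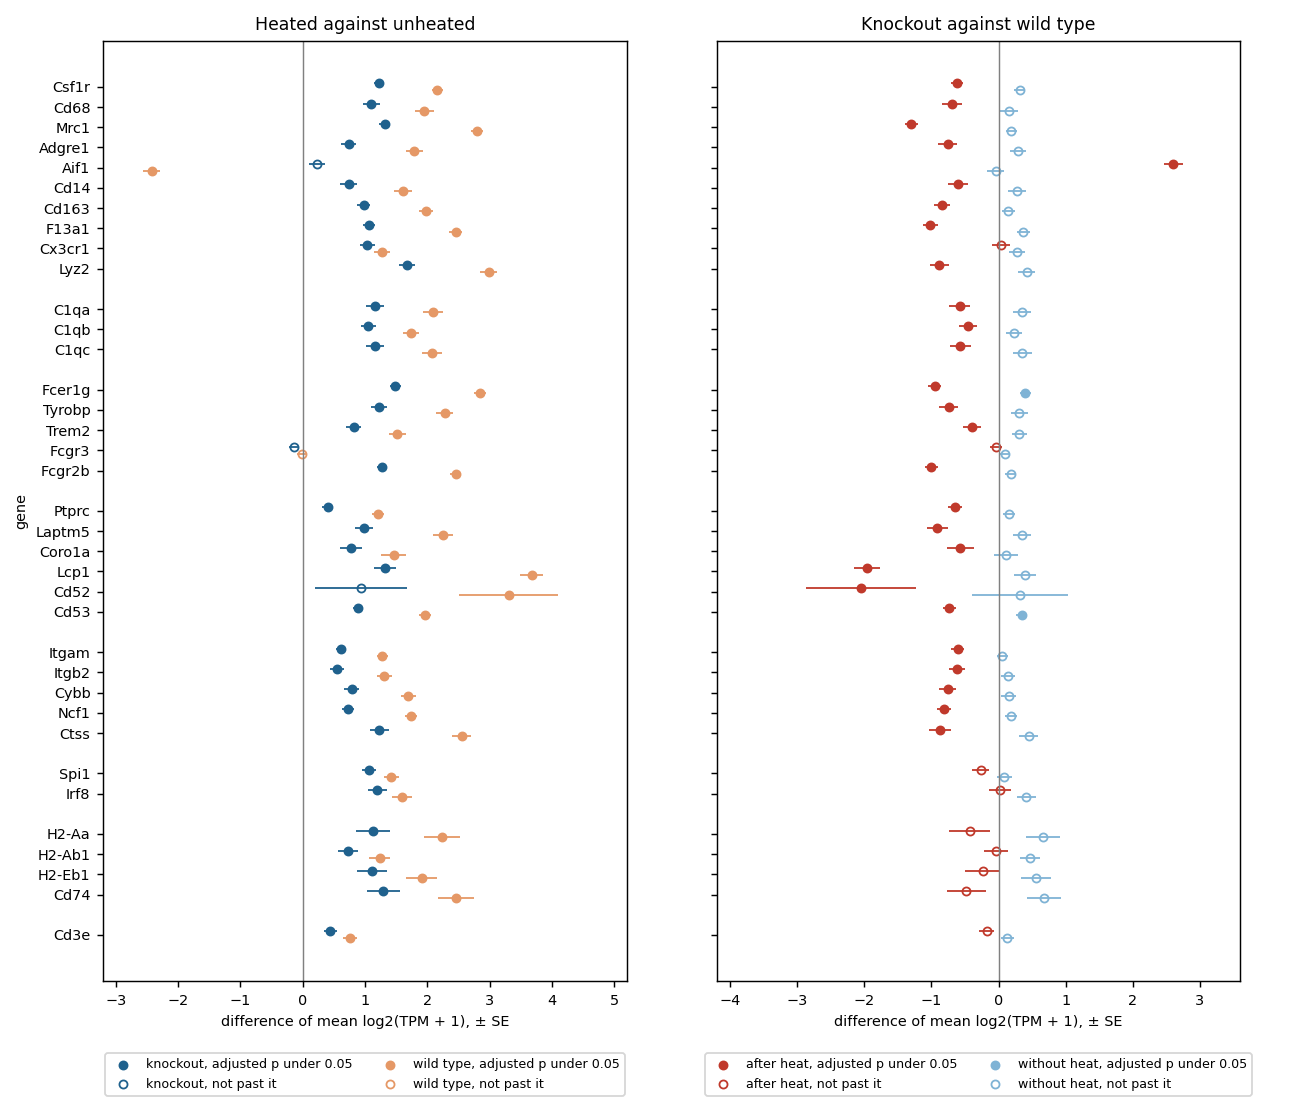
Differences of mean log2(TPM + 1) with standard errors for the 36 genes tested, grouped by role. Left, heated against unheated testes in knockout and wild type. Right, knockout against wild-type testes after heat and without heat. Filled points passed an adjusted p of 0.05. Nearly all points of the left panel lie right of 0, further in wild type, and Aif1, Cd52 and Fcgr3 depart from the rest.

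Promoter sequences are shown for 5 genes whose patterns the results turn on: Mrc1 and C1qc, which followed the common pattern, Aif1, which did not, and the class II genes H2-Aa and H2-Eb1, which 1 library in each unheated group held well above the rest. Each is 300 bases around the transcription start from RefSeq on GRCm38.p6, read 5′ to 3′ on the gene's strand. Capitals mark 2 short motifs on either strand. The PU box is GAGGAA, a core of sites for PU.1, and it reads as TTCCTC where it lies on the opposite strand. The Y box is ATTGG, a part of class II promoters bound by NF-Y, and it reads as CCAAT where it lies on the opposite strand. The motifs share no letters where they were found. The windows are chr2:14229164-14229463 on the plus strand for Mrc1, chr4:136892865-136893164 on the minus strand for C1qc, chr17:35176003-35176302 on the minus strand for Aif1, chr17:34287774-34288073 on the minus strand for H2-Aa and chr17:34305617-34305916 on the plus strand for H2-Eb1.
Mrc1: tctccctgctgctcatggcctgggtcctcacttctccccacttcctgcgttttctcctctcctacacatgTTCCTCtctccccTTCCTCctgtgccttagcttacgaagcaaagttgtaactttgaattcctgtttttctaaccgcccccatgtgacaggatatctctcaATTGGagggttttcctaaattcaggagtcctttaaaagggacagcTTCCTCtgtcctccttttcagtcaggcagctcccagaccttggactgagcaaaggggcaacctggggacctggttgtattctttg
C1qc: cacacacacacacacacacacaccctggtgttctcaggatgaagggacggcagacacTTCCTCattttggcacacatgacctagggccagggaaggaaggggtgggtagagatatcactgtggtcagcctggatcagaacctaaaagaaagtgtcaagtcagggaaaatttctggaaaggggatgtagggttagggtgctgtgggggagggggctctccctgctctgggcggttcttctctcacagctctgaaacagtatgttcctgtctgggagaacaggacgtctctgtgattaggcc
Aif1: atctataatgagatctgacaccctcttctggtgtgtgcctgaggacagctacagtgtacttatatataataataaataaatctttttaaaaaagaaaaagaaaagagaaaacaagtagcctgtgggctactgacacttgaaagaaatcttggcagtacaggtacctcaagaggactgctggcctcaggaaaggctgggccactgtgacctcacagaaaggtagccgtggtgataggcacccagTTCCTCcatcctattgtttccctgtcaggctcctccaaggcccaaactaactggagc
H2-Aa: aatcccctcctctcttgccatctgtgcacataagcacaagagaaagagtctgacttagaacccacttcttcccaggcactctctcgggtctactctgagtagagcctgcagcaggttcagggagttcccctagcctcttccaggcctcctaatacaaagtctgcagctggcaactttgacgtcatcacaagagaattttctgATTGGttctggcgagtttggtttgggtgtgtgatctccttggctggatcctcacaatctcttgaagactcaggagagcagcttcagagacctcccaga
H2-Eb1: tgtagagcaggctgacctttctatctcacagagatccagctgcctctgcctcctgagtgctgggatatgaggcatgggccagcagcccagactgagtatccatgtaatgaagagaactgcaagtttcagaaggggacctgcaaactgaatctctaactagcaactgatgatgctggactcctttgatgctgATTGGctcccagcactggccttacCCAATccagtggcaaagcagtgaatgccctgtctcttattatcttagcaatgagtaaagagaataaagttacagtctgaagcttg

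The Mrc1 window held 3 PU boxes and 1 Y box, those of C1qc and Aif1 1 PU box each, that of H2-Aa 1 Y box and that of H2-Eb1 2 Y boxes. Of the 39 genes, 28 matched a RefSeq promoter entry, with 34 windows. A PU box lay in 18 of the 34 windows (52.9%), against 28.3% of all 32851 windows of that length, and a Y box in 12 of 34 (35.3%), against 37.4% of all. These are matches of letters, not sites shown to be bound.

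Receptors and markers of macrophages made up 12 of the genes. Csf1r encodes the receptor for CSF1 and IL34. It had 14, 15.95, 15.04, 16.16 and 12.43 TPM in the 5 heated KO testes and 23.9, 28.4, 19.0 and 21.7 TPM in the 4 heated WT testes. Its lowest, median and highest values were 5.24, 5.76 and 6.21 TPM in unheated KO and 4.13, 4.29 and 4.88 TPM in unheated WT testes. No 2 of the 4 groups overlapped: heated WT was highest, heated KO next, and unheated KO lay just above unheated WT. The log2 difference for heat was 1.22 ± 0.08 in the knockout (SE, limma adjusted p = 1.51e-11) and 2.16 ± 0.09 in wild type (adjusted p = 9.54e-16). For heated KO against heated WT it was -0.62 ± 0.09 (adjusted p = 2.84e-06).

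Mrc1, the mannose receptor that takes up glycoproteins, separated the heated groups more widely. It stood at 27.6, 31.5, 23.2, 34.5 and 27.8 TPM in heated KO and 68.1, 86.0, 69.6 and 65.9 TPM in heated WT testes. Unheated KO testes ranged from 10.2 to 12.1 TPM with a median of 11.04, and unheated WT testes from 8.40 to 11.1 TPM with a median of 9.44. Every heated WT value was above every heated KO value, while the unheated groups overlapped. Mrc1 rose 2.64-fold with heat in the knockout and 7.62-fold in wild type, and the heat effects differed by -1.49 ± 0.13 (adjusted p = 3.96e-09).

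Lyz2, lysozyme M of myeloid cells, had the highest group mean after Aif1, except in heated WT testes, where 1 library put Cd52 above it and Lyz2 was above Aif1. Heated KO testes had 134, 159, 147, 144 and 113 TPM and heated WT testes 230, 317, 240 and 248 TPM, with no overlap. Unheated KO testes had a median of 40.9 TPM (36.2 to 55.8) and unheated WT testes 31.6 TPM (25.5 to 42.0), which overlapped. Lyz2 rose 3.24-fold with heat in the knockout and 8.06-fold in wild type. Lyz1 is a close copy of this gene, and no source used here says how the authors assigned reads shared by both.

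Cd68, a lysosomal glycoprotein, Adgre1 (F4/80), the haemoglobin scavenger receptor Cd163 and F13a1, coagulation factor XIII A, followed the same order. Cd163 averaged 2.98 ± 0.578 TPM in heated KO, 6.20 ± 1.53 TPM in heated WT, 1.005 ± 0.170 TPM in unheated KO and 0.808 ± 0.0671 TPM in unheated WT testes (SD, n = 5, 4, 6 and 6). F13a1 averaged 12.1 ± 1.49 TPM in heated KO and 25.6 ± 3.72 TPM in heated WT testes. For each of these 4 genes all heated KO testes lay below all heated WT testes, where 42.5% of all genes tested lay entirely below. Cd14, the lipopolysaccharide co-receptor, was also lower in heated KO (difference -0.60 ± 0.15, adjusted p = 0.00115), with 2.25 to 3.79 TPM against 3.62 to 6.80 TPM in heated WT, an overlap made by heated WT replicate 3.

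Cx3cr1, the fractalkine receptor, rose with heat in both genotypes and did not separate the heated groups. It had 4.52, 5.57, 5.09, 5.77 and 3.61 TPM in heated KO and 4.27, 4.85, 3.88 and 5.98 TPM in heated WT testes, an almost complete overlap. The difference between them was 0.04 ± 0.13 (adjusted p = 0.777) and turned to -0.023 with quantile normalization. The annotated span of Cx3cr1 overlaps 9 other genes, some of them on its own strand. Their part in its values was not tested. The ratio of Cx3cr1 to Csf1r within a library was 0.29 to 0.357 in heated KO, 0.171 to 0.275 in heated WT, 0.284 to 0.448 in unheated KO and 0.23 to 0.473 in unheated WT testes, so the heated groups did not overlap in it.

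The 2 receptor genes below the filter were low throughout. Lyve1, a hyaluronan receptor of lymphatic vessels and some resident macrophages, had 0.77 to 1.29 TPM in heated KO, 1.36 to 3.65 TPM in heated WT, 0.20 to 0.68 TPM in unheated KO and 0.26 to 0.47 TPM in unheated WT testes. Ccr2, the chemokine receptor of recruited monocytes, had 0.62 to 0.95 TPM in heated KO, 0.97 to 1.75 TPM in heated WT, 0.25 to 0.44 TPM in unheated KO and 0.17 to 0.29 TPM in unheated WT testes. Both had no overlap between heated KO and heated WT libraries, with heated WT higher.

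**Figure D2:**
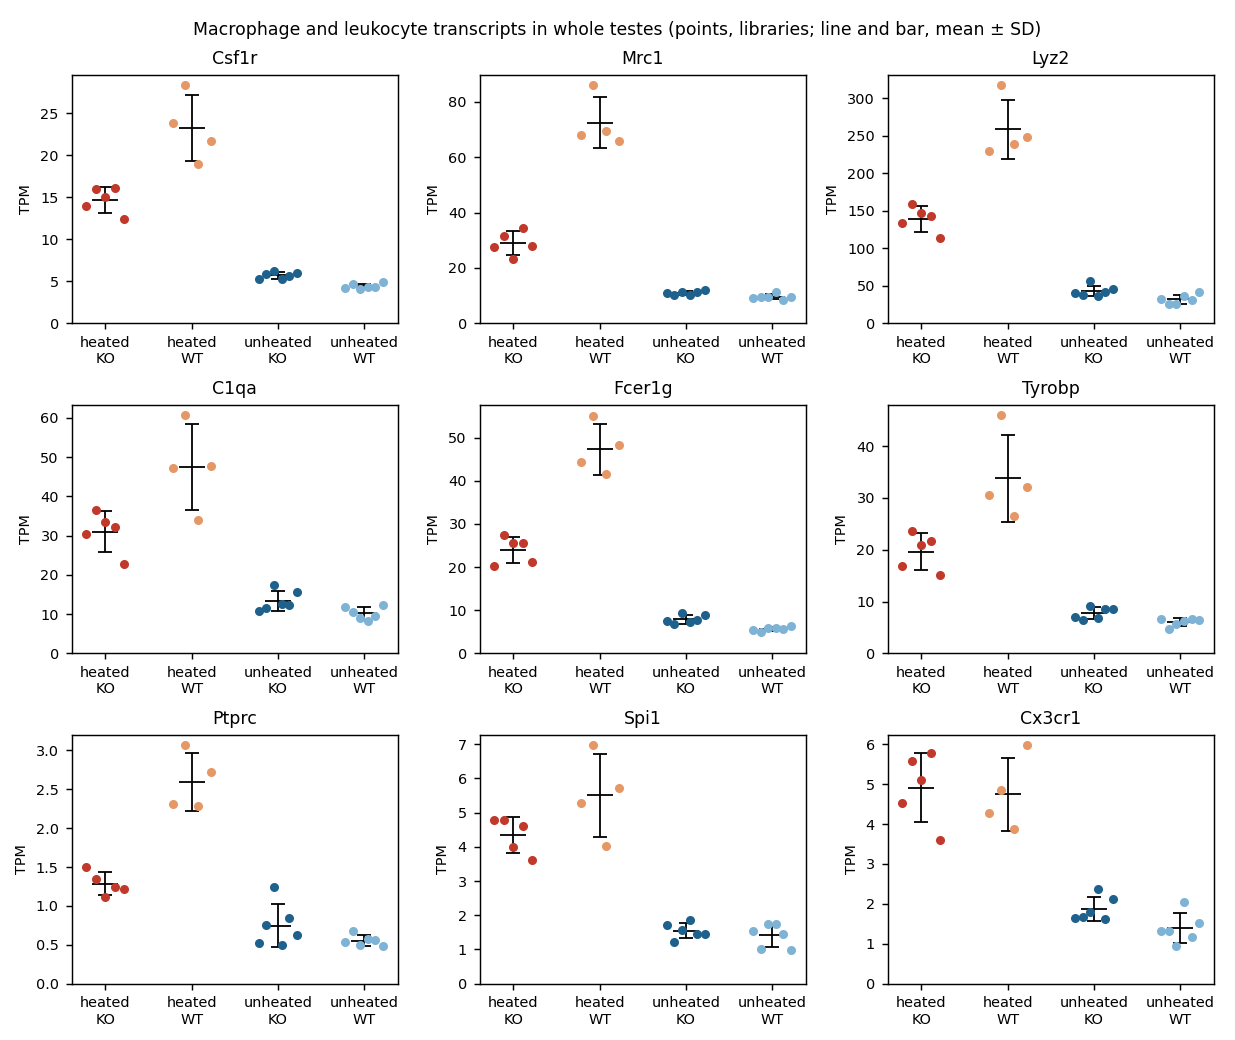
TPM of 9 genes in each library, with group means and SD, in heated KO (n = 5), heated WT (n = 4), unheated KO (n = 6) and unheated WT (n = 6) testes. The heated WT mean is the highest for 8 of the genes, with some overlap of the heated groups for C1qa and Spi1, and for Cx3cr1 the heated groups lie together.

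The 3 chains of C1q, which starts the classical complement pathway and is made by tissue macrophages, all rose with heat in each genotype. Their genes lie side by side on chromosome 4 (C1qb, C1qc and C1qa, mm10, from 136880129 to 136898803). C1qa had 30.5, 36.5, 33.4, 32.2 and 22.7 TPM in heated KO and 47.3, 60.7, 33.9 and 47.7 TPM in heated WT testes. The ranges overlapped only through heated WT replicate 3. Medians were 12.5 TPM in unheated KO and 10.1 TPM in unheated WT testes, with ranges of 10.8 to 17.4 and 8.22 to 12.4 TPM. Heated KO was lower than heated WT for C1qa (-0.58 ± 0.16, adjusted p = 0.00215), C1qb (-0.46 ± 0.13, adjusted p = 0.00364) and C1qc (-0.57 ± 0.16, adjusted p = 0.00263). The proportion of the chains was not constant. The ratio of C1qc to C1qb was 0.510 to 0.660 in heated KO, 0.564 to 0.690 in heated WT, 0.449 to 0.571 in unheated KO and 0.431 to 0.506 in unheated WT testes, and that of C1qa to C1qb 0.603 to 0.733 in heated KO, 0.639 to 0.81 in heated WT, 0.496 to 0.7 in unheated KO and 0.504 to 0.6 in unheated WT testes. Both ratios were higher in heated WT than in unheated WT testes with no overlap, and the other pairs of groups overlapped except heated KO and unheated WT testes.

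Of the 5 Fc receptor and ITAM adaptor genes 4 rose with heat in each genotype, where 41.3% of all genes tested rose in the knockout and 47.0% in wild type. The same 4 were lower in heated KO than in heated WT testes, where 49.0% of all genes tested were lower. Fcer1g, the Fc receptor gamma chain that signals for several activating receptors, had 20.3, 27.4, 25.5, 25.6 and 21.1 TPM in heated KO and 44.3, 55.1, 41.6 and 48.4 TPM in heated WT testes. Unheated KO testes had 6.75 to 9.41 TPM with a median of 7.58, and unheated WT testes 5.07 to 6.31 TPM with a median of 5.75. The 4 groups did not overlap. Heat raised Fcer1g by 1.49 ± 0.09 in the knockout and 2.84 ± 0.10 in wild type, and the difference of the heat effects was -1.35 ± 0.13 (adjusted p = 1.67e-08).

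Tyrobp (DAP12), the adaptor of TREM2, ranged from 15.1 to 23.6 TPM in heated KO and 26.6 to 45.9 TPM in heated WT testes. Trem2, a lipid receptor of tissue macrophages, ranged from 3.22 to 4.99 TPM in heated KO and 4.41 to 7.13 TPM in heated WT testes, which overlapped. Its difference of -0.39 ± 0.14 (adjusted p = 0.0118) became -0.29 (adjusted p = 0.0639) without heated WT replicate 2. Fcgr2b, the inhibitory Fc receptor, separated the heated groups fully, with 13.8 to 17.1 TPM in heated KO and 28.4 to 39.6 TPM in heated WT testes (difference -1.001 ± 0.093, adjusted p = 4.67e-09).

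Fcgr3, the activating receptor for IgG on chromosome 1 near Fcgr2b, was the flat gene of the set. It had 22.6, 22.4, 22.6, 19.5 and 24.2 TPM in heated KO and 21.9, 29.6, 19.9 and 21.1 TPM in heated WT testes. Unheated KO testes had 23.7 to 25.9 TPM and unheated WT testes 21.8 to 25.2 TPM, so all 4 groups overlapped. The difference for heat was -0.14 ± 0.08 in the knockout (adjusted p = 0.0915) and -0.01 ± 0.08 in wild type (adjusted p = 0.917).  The knockout difference was called lower when heated WT replicate 2 was left out (adjusted p = 0.0213), when libraries were scaled by the median of ratios (-0.18, adjusted p = 0.0316) and when unheated KO and heated KO libraries alone were fitted (adjusted p = 0.0398). On the TPM scale, which is per length, Fcgr2b averaged 15.5 TPM in heated KO, 32.2 TPM in heated WT, 5.86 TPM in unheated KO and 5.03 TPM in unheated WT testes, so it was above Fcgr3 in heated WT testes and below it in the other groups.

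Among 6 pan-leukocyte and cytoskeletal genes, Ptprc (CD45), the phosphatase carried by all nucleated blood cells, was low. It had 1.11 to 1.5 TPM in heated KO and 2.29 to 3.07 TPM in heated WT testes, with no overlap. Unheated KO testes had 0.50 to 1.24 TPM with a median of 0.690, and unheated WT testes 0.48 to 0.68 TPM. The top unheated KO value, replicate 3, reached into the heated KO range. Heated KO was lower than heated WT by a log2 difference of -0.65 ± 0.10 (adjusted p = 5.59e-06). Laptm5, a lysosomal protein of blood cells, and Cd53, a tetraspanin, followed the same order with no overlap between heated groups.

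Lcp1 (L-plastin), which bundles actin in blood cells, was the gene furthest below heated WT in heated KO testes (-1.96 ± 0.19, adjusted p = 1.01e-08), apart from Cd52, where 1 library set the difference. Heated KO testes had 6.54, 12.3, 7.31, 12.5 and 5.69 TPM and heated WT testes 25.6, 51.5, 37.5 and 32.9 TPM. Unheated KO testes had 2.33 to 3.56 TPM with a median of 2.71, and unheated WT testes 1.51 to 2.13 TPM with a median of 2.04. No groups overlapped. Heat raised Lcp1 3.16-fold in the knockout and 19.5-fold in wild type, and the heat effects differed by -2.35 ± 0.26 (adjusted p = 6.62e-08). Its ratio to Ptprc within a library was 4.36 to 9.98 in heated KO, 11.1 to 16.8 in heated WT, 2.87 to 4.86 in unheated KO and 2.70 to 4.27 in unheated WT testes, so Lcp1 did not keep 1 proportion to this leukocyte gene. Coro1a, coronin of the leukocyte cortex, was lower in heated KO (-0.57 ± 0.20, adjusted p = 0.0132), a call lost without heated WT replicate 2 (-0.45, adjusted p = 0.0608). It overlaps Bola2 on the opposite strand.

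Cd52 encodes a short glycopeptide anchored on lymphocytes and also made by the epithelium of the epididymis. It had 1499 TPM in heated WT replicate 3 and 15.7, 20.6 and 19.8 TPM in the other heated WT testes. Heated KO testes had 9.69 to 17.3 TPM, unheated KO testes 4.85 to 9.38 TPM and unheated WT testes 2.79 to 7.16 TPM. The same heated WT library held 2126 TPM of Crisp1 and 1280 TPM of Spink8, both epididymal genes, against 0 to 0.35 TPM of Crisp1 and 11.52 to 17.97 TPM of Spink8 in the other 3. Without it the log2 difference for heat in wild type was 1.74 (adjusted p = 9.98e-08) in place of 3.31 (adjusted p = 0.000525), and heat in the knockout, 0.94, had an adjusted p of 6.37e-05 in place of 0.246. Heated KO against heated WT was -0.48 without it (adjusted p = 0.0437) in place of -2.05 (adjusted p = 0.0265).

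The integrin chains Itgam (CD11b) and Itgb2 (CD18), the NADPH oxidase genes Cybb and Ncf1, which make superoxide in phagocytes, and the lysosomal protease Ctss, which trims the class II invariant chain, all rose in both genotypes. All 5 were lower in heated KO than in heated WT testes, with no overlap. Of all genes tested, 49.0% were called lower in this comparison and 42.5% lay entirely below. Ctss, the most abundant, had 20.7, 26.4, 19.5, 21.6 and 15.8 TPM in heated KO and 32.9, 50.4, 34.8 and 37.2 TPM in heated WT testes. Ncf1 averaged 2.05 ± 0.245 TPM in heated KO, 4.43 ± 1.05 TPM in heated WT, 0.843 ± 0.174 TPM in unheated KO and 0.610 ± 0.0632 TPM in unheated WT testes (SD, n = 5, 4, 6 and 6). The differences of the heat effects of the 5 genes ran from -0.66 for Itgam to -1.32 for Ctss.

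The transcription factor genes Spi1 (PU.1) and Irf8 rose with heat in both genotypes. Spi1 had 4.77, 4.79, 4.00, 4.61 and 3.61 TPM in heated KO and 5.28, 6.97, 4.03 and 5.72 TPM in heated WT testes. The ranges overlapped through heated WT replicate 3, and the difference of -0.27 ± 0.12 did not pass (adjusted p = 0.0531). Without that library it was -0.38 (adjusted p = 0.00667), and it also passed without any 1 of 4 other libraries, at adjusted p of 0.0459 or more. Irf8, a factor of monocyte and dendritic cell development, had 9.79, 10.7, 12.7, 13.4 and 7.01 TPM in heated KO and 11.2, 12.8, 7.69 and 10.2 TPM in heated WT testes, an overlap across the range (difference 0.02 ± 0.17, adjusted p = 0.91).

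The 4 MHC class II genes, H2-Aa, H2-Ab1 and H2-Eb1 on chromosome 17 and the invariant chain Cd74, rose with heat in both genotypes and did not pass the test between heated KO and heated WT testes. H2-Aa had 40.0, 51.4, 30.1, 36.2 and 30.4 TPM in heated KO and 44.8, 51.4, 45.9 and 59.8 TPM in heated WT testes. H2-Ab1 had 35.5, 37.3, 28.6, 33.0 and 24.7 TPM in heated KO and 32.2, 31.0, 28.9 and 38.5 TPM in heated WT testes. The heated groups overlapped for all 4 genes, and the differences were -0.43 ± 0.30 for H2-Aa (adjusted p = 0.183), -0.04 ± 0.18 for H2-Ab1 (adjusted p = 0.825), -0.23 ± 0.26 for H2-Eb1 (adjusted p = 0.411) and -0.48 ± 0.29 for Cd74 (adjusted p = 0.133). Without unheated KO replicate 3, which narrows the spread shared by the fit, Cd74 passed at the same difference (adjusted p = 0.0324). With heated libraries alone in the fit, H2-Aa (adjusted p = 0.0257) and Cd74 (adjusted p = 0.0197) passed, and H2-Ab1 and H2-Eb1 did not.

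Unheated testes of 1 genotype differed from each other in these genes. H2-Aa had a median of 14.4 TPM in unheated KO testes (10.04 to 41.7) and 8.62 TPM in unheated WT testes (7.72 to 18.3). Unheated KO replicate 3 held 41.7 TPM of H2-Aa, 33.3 TPM of H2-Ab1, 27.9 TPM of H2-Eb1 and 71.4 TPM of Cd74, values within the heated KO ranges. The 4 genes summed to 174 TPM in that library and to 51.2 to 77.5 TPM in the other 5 unheated KO libraries, and to 75.8 TPM in unheated WT replicate 6 and 38.7 to 50.4 TPM in the other 5 unheated WT libraries. In unheated KO replicate 3 the ratio of H2-Aa to Csf1r was 6.72, against 1.90 to 3.38 in the other unheated KO libraries, so class II stood above the macrophage receptor there. Genes for red blood cells summed to 314 TPM in it, against 103 to 213 TPM in the other 5, and the ligands of Ccr2 and Cx3cr1 to 30.8 TPM, against 8.53 to 18.5 TPM. Their part in the class II values was not tested.

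**Figure D3:**
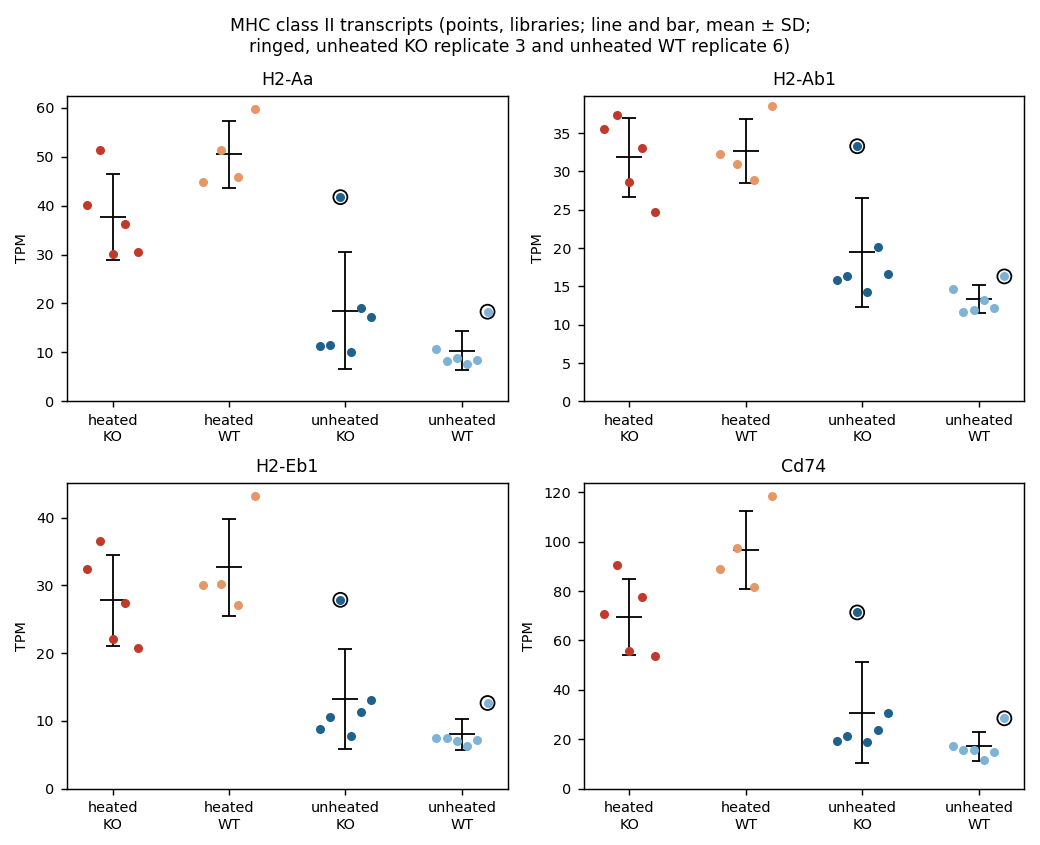
TPM of H2-Aa, H2-Ab1, H2-Eb1 and Cd74 in each library, with group means and SD and the groups ordered heated KO, heated WT, unheated KO, unheated WT. Ringed points are unheated KO replicate 3, which lies among the heated testes for each gene, and unheated WT replicate 6, the highest of its group.

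H2-Ab1 did not keep 1 proportion to Csf1r. The ratio of H2-Ab1 to Csf1r was 1.90 to 2.54 in heated KO and 1.09 to 1.77 in heated WT libraries, with no overlap, against 2.71 to 5.36 in unheated KO and 2.52 to 3.53 in unheated WT libraries. For the other 3 class II genes the heated groups overlapped in their ratio to Csf1r. That of H2-Aa was 2 to 3.22 in heated KO, 1.81 to 2.75 in heated WT, 1.9 to 6.72 in unheated KO and 1.78 to 3.75 in unheated WT libraries, so all 4 groups overlapped. That of Cd74 was 3.7 to 5.67 in heated KO and 3.43 to 5.45 in heated WT libraries, and that of H2-Eb1 1.47 to 2.31 in heated KO and 1.06 to 1.99 in heated WT libraries. Relative to Ptprc, H2-Ab1 stood at 20.3 to 27.6 in heated KO, 10.1 to 14.2 in heated WT, 21.8 to 30.6 in unheated KO and 17.1 to 34.0 in unheated WT libraries. Mrc1 moved the other way: its ratio to Csf1r was 1.54 to 2.24 in heated KO, 2.85 to 3.66 in heated WT, 1.73 to 2.09 in unheated KO and 1.91 to 2.58 in unheated WT libraries. Heated WT testes therefore held more Mrc1 and less H2-Ab1 per Csf1r transcript than heated KO testes. A ratio within a library does not depend on how that library was scaled. The class II ratios are of genes chosen with earlier results of these data known. Those of Mrc1, Cx3cr1, Lcp1, C1qa and C1qc were chosen after their values were seen. None of these ratios was tested.

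Of the lymphocyte receptor genes, Cd3e of the T cell receptor complex had 1.43 to 1.88 TPM in heated KO, 1.90 to 2.10 TPM in heated WT, 0.50 to 1.61 TPM in unheated KO and 0.56 to 1.08 TPM in unheated WT testes. It rose with heat in the knockout (0.44 ± 0.11, adjusted p = 0.000604) and in wild type (0.75 ± 0.11, adjusted p = 1.81e-06). All heated KO values were below all heated WT values, yet the difference did not pass (-0.18 ± 0.12, adjusted p = 0.161), except with quantile normalization (-0.44, adjusted p = 0.0025). Cd79a of the B cell receptor stayed at 0.33 TPM or less in every library.

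Aif1 (IBA1), a calcium-binding protein of macrophages that has also been described in spermatids, had a level and a pattern unlike the other 38 genes. It stood at 1046, 860, 948, 778 and 878 TPM in heated KO and 211, 95.1, 133 and 176 TPM in heated WT testes. Unheated KO testes had 693 to 819 TPM with a median of 776, and unheated WT testes 765 to 813 TPM with a median of 795. Only the heated WT group stood apart, below all others. Aif1 fell to 0.194 of its unheated level in heated WT testes (-2.42 ± 0.14, adjusted p = 1.77e-13), did not pass in heated KO testes (0.22 ± 0.13, adjusted p = 0.11), and was 5.87-fold higher in heated KO than in heated WT testes (2.60 ± 0.14, adjusted p = 2.27e-12). The median log2 difference of the round spermatid list was -1.90 for heat in the knockout, -4.79 for heat in wild type and 2.69 for heated KO against heated WT testes. Its part in the Aif1 values was not tested. Heat in the knockout passed for Aif1 without heated WT replicate 1 (adjusted p = 0.0492) or replicate 2 (adjusted p = 0.0199), at the same difference of 0.22, and with knockout libraries alone in the fit (adjusted p = 0.00828).

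**Figure D4:**
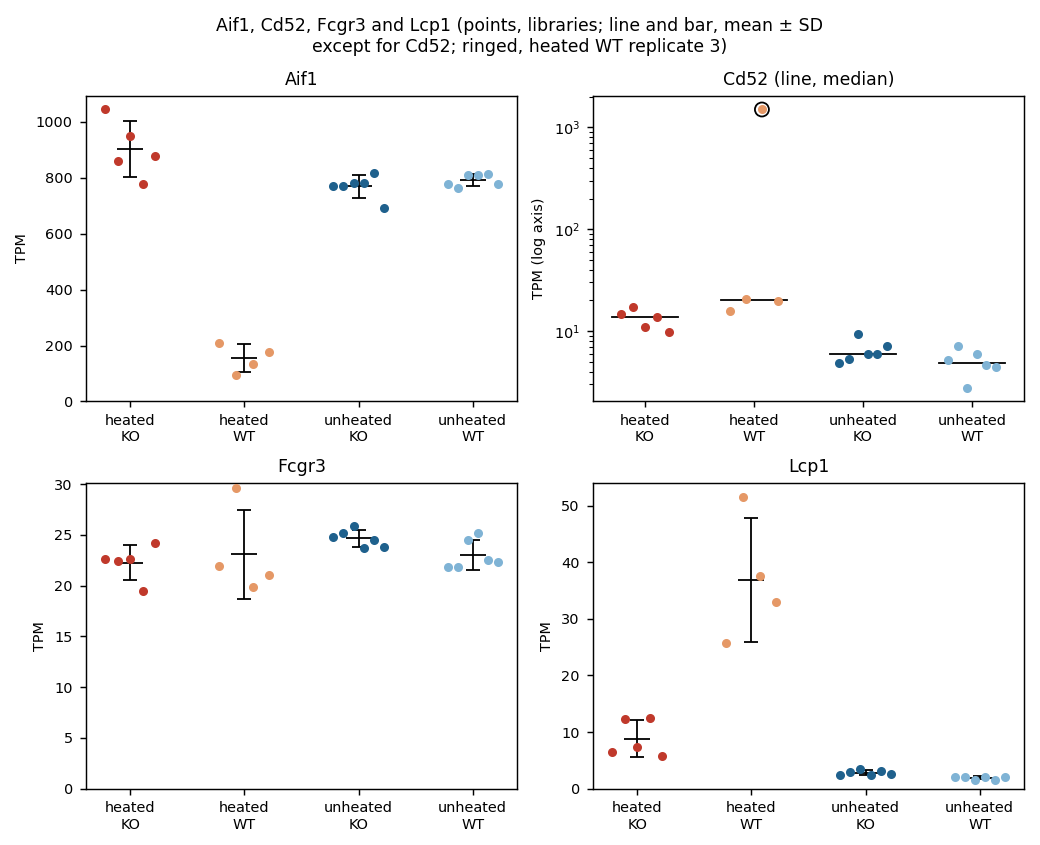
TPM of Aif1, Cd52, Fcgr3 and Lcp1 in each library, with group means and SD except for Cd52, where the axis is logarithmic and lines are medians. The ringed Cd52 point is heated WT replicate 3. Aif1 is low in heated WT testes only, Fcgr3 lies level in all groups, and Lcp1 is highest in heated WT testes.

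Between heated KO and heated WT testes, 21 of the 36 genes lay entirely below and 1, Aif1, entirely above, where 42.5% of all genes tested lay entirely below and 29.9% entirely above. The calls were 26 lower, 1 higher and 9 not passing: Cx3cr1, Fcgr3, Spi1, Irf8, H2-Aa, H2-Ab1, H2-Eb1, Cd74 and Cd3e. Leaving out heated WT replicate 2 left 24 lower. The difference of the heat effects was lower in the knockout for 28 genes and higher for 1, against 47.6% and 33.2% of all genes tested. That for H2-Eb1 (-0.79 ± 0.34, adjusted p = 0.0397) was lost without any of 10 single libraries, with adjusted p up to 0.0979, and that for Coro1a without heated WT replicate 2 (adjusted p = 0.0669). Excluding Aif1 and Cd52, the other 37 genes summed to 535 to 770 TPM in heated KO, 938 to 1301 TPM in heated WT, 231 to 427 TPM in unheated KO and 193 to 256 TPM in unheated WT libraries. The heated groups did not overlap in this sum, and the unheated groups did. With Aif1 and Cd52 kept in, all 39 genes summed to 1423 to 1700 TPM in heated KO and 1220 to 2571 TPM in heated WT libraries. Without heated WT replicate 3 the heated WT sums were 1220 to 1417 TPM, all below those of heated KO. The order of the heated groups in a sum thus depends on whether Aif1 is counted.

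Without heat, Cd53 and Fcer1g were higher in knockout than in wild-type testes and no gene was lower. That is 2 of 36, where 1.25% of all genes tested were called higher and 0.0843% lower. With no filter neither was called, where 0.167% of all genes were higher and 0.0354% lower. Cd53 had 1.18 to 1.54 TPM in unheated KO and 0.66 to 1.15 TPM in unheated WT testes (0.34 ± 0.08, adjusted p = 0.0456). The call was lost without any 1 of 11 of the 12 unheated libraries (adjusted p = 0.0576 to 0.136). Fcer1g differed by 0.40 ± 0.09 (adjusted p = 0.0341), a call lost without any 1 of 8 of them (adjusted p = 0.0513 to 0.108). These 2 genes and Csf1r, C1qc and Lcp1 had no overlap between the groups, 5 of 36, against 4.33% of all genes with all knockout values above and 0.643% with all below. At an unadjusted p under 0.05, 23 genes were higher and none lower, against 14.3% and 1.69% of all genes, and 35 of 36 differences were above 0, against 59.0%.

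Without unheated KO replicate 3, limma called none of the 36, against 0.437% of all genes called higher and 0.0369% lower. None was called either without any single one of 6 other unheated libraries, unheated KO replicates 1, 5 and 6 and unheated WT replicates 1, 2 and 3. At an unadjusted p under 0.05, 11 were higher and none lower, against 13.3% and 1.64% of all genes, 34 of the 36 differences were above 0, against 59.1%, and their median was 0.23. Fcer1g was then 0.35 (adjusted p = 0.0682) and Cd53 0.34 (adjusted p = 0.0767). Quantile normalization also left none called, and over all genes it gave 44 higher and 26 lower in place of 237 and 16. With all libraries kept, Leydig and Sertoli lists had medians of 0.36 and 0.33 in the same comparison, close to the 0.30 of the leukocyte genes. Endothelial and peritubular myoid lists had lower medians, 0.09 and 0.13.

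Other genes of the same pathways, from lists given by role, were tested in the same fit. The filter averages over all libraries, so genes of these lists and those below that were low in unheated testes could pass through heated libraries. The lists were not counted without the filter. Of all genes tested, 41.3% rose and 41.5% fell in the knockout, and 47.0% rose and 44.6% fell in wild type. In heated KO against heated WT testes 49.0% were lower and 34.4% higher. Among 8 genes for ligands of CSF1R and myeloid growth factors, 6 were tested and 5 rose in each genotype. Csf1, the growth factor for macrophages, averaged 7.81 ± 1.04 TPM in heated KO, 10.9 ± 1.85 TPM in heated WT, 3.15 ± 0.458 TPM in unheated KO and 2.23 ± 0.249 TPM in unheated WT testes. Il34, the other CSF1R ligand, rose by 0.63 ± 0.16 in the knockout and 1.49 ± 0.17 in wild type, and Csf2rb, a receptor subunit for GM-CSF, by 0.58 ± 0.12 and 1.59 ± 0.13. Of the ligands of Ccr2 and Cx3cr1, Cx3cl1, Ccl8 and Ccl12 were tested and rose in each genotype. Cx3cl1, fractalkine itself, was lower in heated KO than in heated WT testes (-0.57 ± 0.11, adjusted p = 4.47e-05), while its receptor gene did not pass.

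Of 20 further macrophage genes 15 were tested, of which 14 rose and 1 fell in each genotype, beside the shares of all genes given above. Mertk, which takes up apoptotic cells, averaged 9.89 ± 1.35 TPM in heated KO and 19.4 ± 1.07 TPM in heated WT testes. Folr2, a folate receptor of resident macrophages, averaged 10.04 ± 1.06 TPM in heated KO and 23.6 ± 4.71 TPM in heated WT testes. Mpeg1, perforin-2, rose by 1.70 ± 0.13 in the knockout and 3.29 ± 0.14 in wild type. Of 12 further complement genes 11 were tested, of which 9 rose in the knockout and 10 in wild type, among them C1ra (1.29 ± 0.10 and 2.61 ± 0.10) and its near copy C1rb. Of the other NADPH oxidase subunits, 2 of 4 rose in the knockout and 3 of 4 in wild type. Cyba, the partner of Cybb, rose by 1.17 ± 0.14 in the knockout and 1.73 ± 0.15 in wild type.

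The class II pathway beyond the 4 genes above was mixed. Of 10 genes 6 were tested, of which 1 rose and 3 fell in the knockout and 2 rose and 3 fell in wild type. Ifi30, a thiol reductase of antigen processing, rose by 1.10 ± 0.12 in the knockout and 2.11 ± 0.12 in wild type. Rfxank, a subunit of the RFX complex that binds class II promoters, fell by 0.72 ± 0.08 in the knockout and by 0.77 ± 0.09 in wild type (adjusted p = 8e-08 and 4.22e-08). H2-DMa, which loads peptides, fell by 0.45 ± 0.11 in wild type (adjusted p = 0.000429) and had -0.09 ± 0.10 in the knockout (adjusted p = 0.395).

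Markers of other leukocytes did not move as 1 group. None of 10 neutrophil genes passed the filter, and they summed to 0.76 to 3.11 TPM in heated KO, 2.82 to 9.92 TPM in heated WT, 0.54 to 0.90 TPM in unheated KO and 0.69 to 1.10 TPM in unheated WT libraries. Of 6 mast cell genes only Hdc, histidine decarboxylase, was tested, with 27.65 to 44.7 TPM in heated KO, 73.3 to 105 TPM in heated WT, 15.6 to 16.7 TPM in unheated KO and 13.2 to 16.1 TPM in unheated WT testes. It rose by 1.05 ± 0.11 in the knockout and 2.46 ± 0.12 in wild type. It was lower in heated KO than in heated WT testes (-1.25 ± 0.12, adjusted p = 8.13e-09), the order of most genes described here. The other mast cell genes averaged at most 0.22 TPM over all libraries, so this list rests on Hdc alone. Of 13 T and NK cell genes 3 were tested. Trac, the T cell receptor alpha constant gene, averaged 4.17 ± 2.17 TPM in heated KO and 15.6 ± 2.88 TPM in heated WT testes, while Cd3d averaged 57.2 ± 8.38 TPM in heated KO, 32.99 ± 4.86 TPM in heated WT, 33.7 ± 3.48 TPM in unheated KO and 36.97 ± 3.10 TPM in unheated WT testes. Cd3d thus stood far above Cd3e, its partner in the same receptor complex, in every group.

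Of 7 B and plasma cell genes 4 were tested, and 3 rose and 1, Pax5, fell in each genotype. Ighm averaged 8.01 ± 2.94 TPM in heated KO, 9.57 ± 4.09 TPM in heated WT, 2.59 ± 1.36 TPM in unheated KO and 1.81 ± 0.538 TPM in unheated WT testes. Of 7 dendritic cell genes 4 were tested, of which 2 rose and 2 fell in the knockout and 1 rose and 2 fell in wild type. Against heated WT testes, 3 of these 4 were higher in heated KO testes and 1, Itgax, was lower, with a median of 0.63. Itgax (CD11c) had a mean of 1.13 ± 0.537 TPM in heated KO and 4.86 ± 0.441 TPM in heated WT testes. Of 6 monocyte genes 4 were tested, with 2 higher and 1 lower with heat in the knockout and 1 higher and 1 lower in wild type. Their median was 0.39 for heated KO against heated WT testes, beside 0.09 for the 3 T and NK cell genes and 0.06 for the 4 B and plasma cell genes, where the genes described here had -0.62.

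The somatic cells around the macrophages gave medians of the same sign. For heat in the knockout and in wild type these were 0.75 and 1.53 for 12 endothelial genes, 1.48 and 2.23 for 11 Leydig cell genes, 1.56 and 2.77 for 14 Sertoli cell genes and 0.75 and 1.33 for 8 peritubular myoid genes, beside 1.04 and 1.93 for the leukocyte genes. For heated KO against heated WT testes the medians were -0.71 for endothelial, -0.33 for Leydig, -0.90 for Sertoli and -0.43 for peritubular myoid genes, beside -0.62. The medians of the genes described here thus lay among those of these 4 lists, while round spermatid genes moved the opposite way. Endothelial genes summed to 56.5 to 77.9 TPM in heated KO, 98.5 to 121 TPM in heated WT, 33.3 to 39.4 TPM in unheated KO and 29.5 to 33.5 TPM in unheated WT libraries. The 5 red blood cell genes, a sign of blood in the tissue, all rose with heat in each genotype, with medians of 1.52 in the knockout and 2.40 in wild type, and had a median of -0.55 for heated KO against heated WT testes, where 1 of the 5 was lower. They summed to 252 to 774 TPM in heated KO, 515 to 1385 TPM in heated WT, 103 to 314 TPM in unheated KO and 91.7 to 199 TPM in unheated WT libraries. Their highest sum was in heated WT replicate 2, the library highest for 30 of the 39 genes in its group. That library also had the highest heated WT sums of the endothelial, Sertoli and peritubular myoid lists, though not of the Leydig list. The part of blood and of these other cell types in the leukocyte values was not tested.

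**Figure D5:**
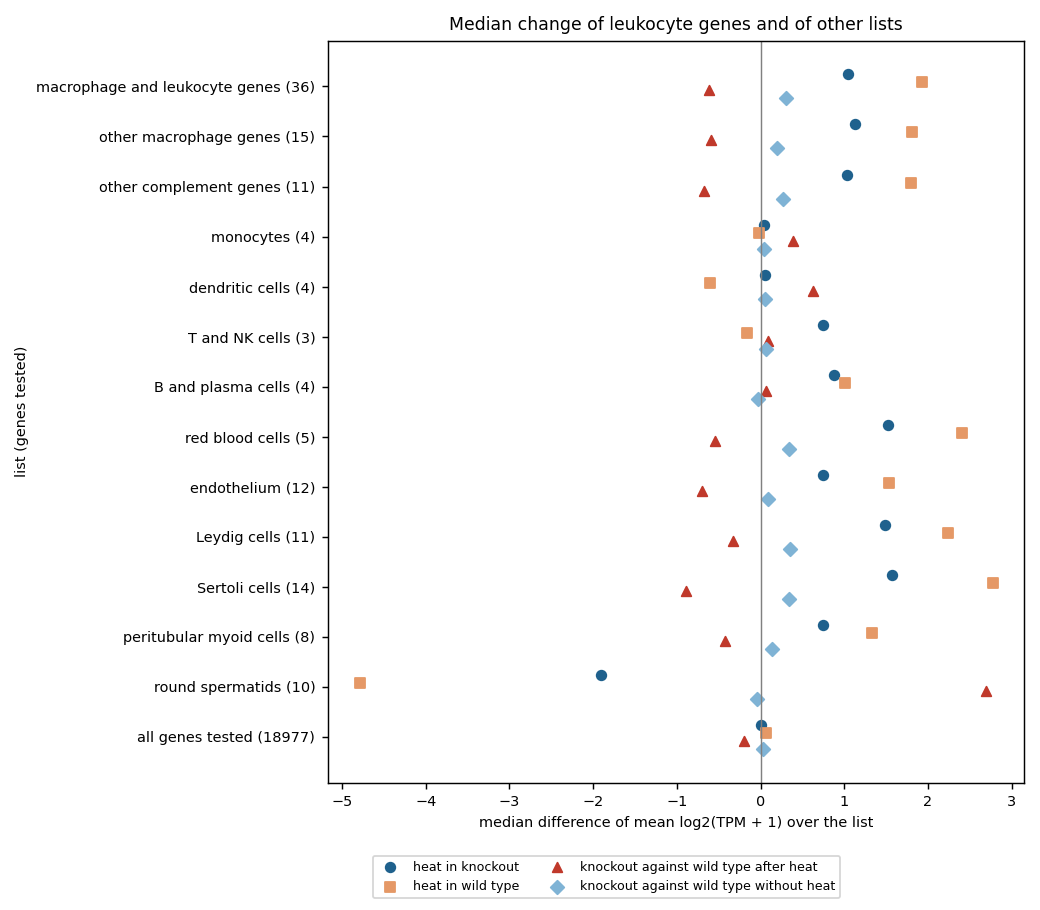
Median difference of mean log2(TPM + 1) over each list, for heat in the knockout and in wild type and for knockout against wild type after and without heat, with the number of genes tested in brackets. Medians of the macrophage, complement, red blood cell, endothelial, Leydig, Sertoli and peritubular myoid lists lie right of 0 for heat and left of 0 for heated KO against heated WT testes. Round spermatids lie on the opposite sides, and monocyte, dendritic, T and NK, and B and plasma cell lists lie right of 0 for heated KO against heated WT testes.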

How the data were processed

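The deposited values are TPM made by the authors, with 1 column for each library. STAR and the mm10 build are named, per the submitters' processing notes, while the version, the annotation and the quantifier are not named in any source used here. RNA was extracted with Trizol and stranded mRNA libraries were sequenced, per the labels' protocols. TPM keeps no sequencing depth, so precision was judged from the spread between libraries alone. Each p-value sets a difference between groups against that spread, pooled over the 4 groups.

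Genes averaging 1 TPM or more were fitted as log2(TPM + 1) with limma 3.58.1 in R 4.3.3, as 1 model of the 4 group means with a mean-variance trend. The 5 comparisons were heated against unheated within each genotype, knockout against wild type with and without heat, and the difference of the heat effects. Calls were made at 0.05 after Benjamini-Hochberg adjustment over all 18977 genes. The script was tested on simulated data. The values given for a group are means with SD over libraries, and folds are ratios of group means.

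The 39 genes and 19 other lists were chosen with earlier results of these data known. The text names all 39 genes, the targeted gene, Crisp1 and Spink8, and at most 3 genes of each other list, those with the largest moderated t for heat in wild type; a few of these are not reported here. Coordinates are from GENCODE on mm10. It is not known whether the counting used strand, which bears on genes that overlap others.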

Additional observations from a re-analysis of the deposited data

Results flagged for a closer look

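In 18 of 156 sets of libraries (1 gene in 1 group of 4 to 6), 1 library lay far from the rest by Dixon's criterion, which chance alone meets in about 1 set in 20. Of these, 9 were high values in unheated KO replicate 3: Cd68 at 5.32 TPM (3.88 to 4.33 TPM in the other 5), Adgre1 at 4.41 TPM (2.44 to 2.93), C1qb at 30.53 TPM (18.43 to 22.21), Laptm5 at 8.08 TPM (4.45 to 5.34), Coro1a at 4.38 TPM (1.43 to 2.45), H2-Aa at 41.72 TPM (10.04 to 19.07), H2-Ab1 at 33.28 TPM (14.32 to 20.13), H2-Eb1 at 27.86 TPM (7.73 to 13.11) and Cd74 at 71.36 TPM (19.07 to 30.54). Unheated WT replicate 6 was high for Ctss at 7.16 TPM (5.3 to 5.74 in the other 5), H2-Aa at 18.32 TPM (7.72 to 10.79), H2-Eb1 at 12.64 TPM (6.35 to 7.54) and Cd74 at 28.5 TPM (11.42 to 17.38).

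The other values apart from their group were Cd52 at 1499.15 TPM in heated WT replicate 3 (15.73 to 20.56 in the other 3), Cd53 at 7.52 TPM in heated WT replicate 2 (5.56 to 5.74), Aif1 at 692.87 TPM in unheated KO replicate 6 (771.64 to 818.7 in the other 5), F13a1 at 5.15 TPM in unheated WT replicate 4 (3.37 to 3.81) and Cd53 at 1.15 TPM in unheated WT replicate 5 (0.66 to 0.84).

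The heat effect differed between knockout and wild type for 29 genes by limma's interaction contrast, given here as knockout minus wild type on the log2(TPM + 1) scale. Aif1 was the only one of the 29 with a positive difference, 2.64. Among receptors and markers of macrophages the difference was -0.93 for Csf1r, -0.85 for Cd68, -1.49 for Mrc1, -1.055 for Adgre1, -0.88 for Cd14, -0.99 for Cd163, -1.39 for F13a1 and -1.30 for Lyz2. It was -0.93 for C1qa, -0.69 for C1qb and -0.92 for C1qc, and for Fc receptor and adaptor genes -1.35 for Fcer1g, -1.055 for Tyrobp, -0.70 for Trem2 and -1.18 for Fcgr2b. For pan-leukocyte and cytoskeletal genes it was -0.81 for Ptprc, -1.26 for Laptm5, -0.68 for Coro1a, -2.35 for Lcp1 and -1.08 for Cd53. For phagocyte genes it was -0.66 for Itgam, -0.76 for Itgb2, -0.91 for Cybb, -1.01 for Ncf1 and -1.32 for Ctss. For class II genes it was -1.095 for H2-Aa, -0.795 for H2-Eb1 and -1.16 for Cd74.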

How the results depend on the processing

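The heat and after-heat counts kept within 1.5 times under the scalings, pseudocount, variance trend and no filter, except that Fcgr3 made 1 gene lower with heat in the knockout under median-of-ratios scaling and with only the groups compared. A mean of at least 5 TPM left 22 of the genes among 13162 tested. Of the 22, 19 rose in the knockout, 20 rose in wild type and 15 were lower in heated KO than in heated WT testes. The share of all genes called was not counted at this filter, so these counts have no background beside them. For knockout against wild type without heat, the 2 genes higher became 4 with a pseudocount of 0.1, 5 with only the groups compared, 1 when scaled by the median of ratios, and 0 without a filter, with quantile normalization or without unheated KO replicate 3 and heated WT replicate 3 (the last chosen after seeing the data). Over all genes, median-of-ratios scaling gave 166 higher and 18 lower in place of 237 and 16. The share of all genes was not counted for a pseudocount of 0.1 or with only the groups compared. The cause of these changes was not tested.

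Leaving out 1 library gave 33 to 34 genes higher and 0 to 1 lower with heat in the knockout, 34 to 34 higher in wild type, 0 to 4 higher without heat, 24 to 27 lower after heat, and 27 to 32 lower for the difference of the heat effects. Small differences changed sign. Quantile normalization gave -0.027 for Itgam without heat, -0.023 for Cx3cr1, 0.11 for Fcgr3 and 0.10 for H2-Ab1 after heat, and 0.059 for Fcgr3 in the difference of the heat effects. Median-of-ratios scaling gave 0.036 for Fcgr3 and 0.032 for H2-Ab1 after heat. Without both libraries named above, Fcgr3 was 0.054 for heat in wild type, Coro1a -0.052 without heat, and Irf8 -0.11 and Cx3cr1 -0.033 after heat. Without 1 library, Fcgr3 ran from -0.13 to 0.054 for heat in wild type and Coro1a from -0.052 to 0.18 without heat. After heat, knockout against wild type ran from -0.11 to 0.15 for Irf8, -0.033 to 0.14 for Cx3cr1, -0.10 to 0.082 for Fcgr3 and -0.10 to 0.041 for H2-Ab1.

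Same-numbered libraries did not deviate together (correlations from -0.228 to 0.314), so the numbers were not taken to pair them. With the replicate number as a block, 1 gene was higher without heat in place of 2, Cd53 losing its call (adjusted p = 0.0689), and the difference of the heat effects of H2-Eb1 was no longer called (adjusted p = 0.065 by limma).

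TPM gives no read counts, so how far depth limits the genes near 1 TPM, such as Ptprc, Cd163 and Ncf1 in unheated testes, is unknown.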
